A study of Mus musculus with 39 samples.

Results

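Transcripts of the proteasome subunit genes were followed in macrophage-rich tissue of atherosclerotic plaques. The set was every gene symbol that starts with Psma, Psmb, Psmc, Psmd or Psme followed by a digit, which gave 45 of the 24062 symbols listed. A test was possible for 42 of them. Psma8, a testis form of an alpha subunit, Psmb11, the thymus form of the chymotrypsin-like subunit, and Psmc3ip, a recombination factor that is no proteasome subunit, did not pass the filter on low counts.

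The proteasome degrades proteins tagged with ubiquitin. Its 20S core particle is a barrel of outer alpha rings, which gate entry, and inner beta rings, of which Psmb5, Psmb6 and Psmb7 carry the catalytic sites. The 19S regulatory particle caps the barrel: its base holds the ATPases encoded by the Psmc genes, which unfold substrates, and its non-ATPase subunits, encoded by Psmd genes, bind and deubiquitinate them. In immune cells and under interferon, Psmb8, Psmb9 and Psmb10 replace Psmb5, Psmb6 and Psmb7 to form the immunoproteasome, and the cap of Psme1 and Psme2 (PA28 alpha and beta) can sit on the barrel. Macrophages of plaques take up lipid and protein debris, and immunoproteasomes trim peptides for presentation on MHC class I molecules.

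The samples were CD68-rich areas of plaque, cut by laser capture from aortic root sections of 6 µm. All mice were female Apoe-/- animals (B6.129P2-Apoe tm1Unc) that had eaten a high-cholesterol diet for 12 weeks and were treated from an age of 20 weeks, with 4 injections into a vein within 7 days and death 24 hours after the last. The groups were TRAF6i-HDL (10 samples), mTORi-HDL (10), S6K1i-HDL (9) and PBS (10). Each inhibitor was carried on nanoparticles of high-density lipoprotein (HDL) and given at 5 mg/kg. In the protocol the preparations are called CD40-HDL, PF-4708671-HDL and rapamycin-HDL, and the pairing of TRAF6i-HDL with CD40-HDL, and so its dose, rests on exclusion and is not stated. TRAF6 is an adaptor of CD40 signalling, mTOR is a growth-control kinase that rapamycin inhibits, and S6K1 is a kinase downstream of mTOR. None of the samples is labelled as given the empty particle, so in a comparison with PBS the drug and its HDL carrier cannot be told apart. The labels do not say whether each replicate is a separate mouse, so p-values measure the spread between these samples, which may be technical in part. The RNA of the captured cells went through whole-transcriptome amplification before it was sequenced.

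Between 50091 and 6833491 reads per sample were counted in genes, with means of 1836638 in TRAF6i-HDL, 3200136 in mTORi-HDL, 4479531 in S6K1i-HDL and 1388061 in PBS. The proteasome genes took 106 to 10617 counts of a library, and 3 libraries held under 200000 counts in all (TRAF6i-HDL replicate 7, S6K1i-HDL replicate 1 and PBS replicate 9). Macrophage markers were present in each group: 9 of 10 were tested, and their summed level was 4626 to 11238 CPM (counts scaled to a common library size by TMM factors) in TRAF6i-HDL, 3913 to 10757 CPM in mTORi-HDL, 4395 to 7945 CPM in S6K1i-HDL and 2894 to 9497 CPM in PBS. The regions also held other cells: summed fibroblast markers reached 6468, 7083, 7236 and 8707 CPM in TRAF6i-HDL, mTORi-HDL, S6K1i-HDL and PBS samples, smooth muscle markers 729, 1052, 815 and 695 CPM, and endothelial markers 563, 730, 471 and 581 CPM. In such bulk samples a smaller number of cells of one type and less RNA per cell cannot be told apart.

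Subunits of one particle differed widely in transcript level. Per kilobase of exonic length, Psma4 (alpha 3) had the highest median over all samples, at 60.7 CPM per kb, followed by Psmb6 (beta 1, caspase-like) at 55.4, Psme1 at 49.1 and Psma7 (alpha 4) at 47.6 CPM per kb. Among the alpha genes Psma2 (alpha 2) was lowest per kb, at 14.4 CPM per kb, and among the constitutive beta genes Psmb1 (beta 6), at 6.91 CPM per kb. Exonic length takes all annotated exons of a gene, 2911 bases for Psma2 and 3427 for Psmb1, and these ranks depend on it. Without division by length, the PBS median of Psma2 was 51.2 CPM. That was above Psma1 (42.4), Psma5 (27.1) and Psma6 (27.9) and below the other alpha genes. Psmb1 stood at 23.4 CPM, beside 23.1 for Psmb5 and below the other constitutive beta genes. The ATPase genes spanned 12.5 CPM per kb for Psmc2 (Rpt1) to 29.6 for Psmc5 (Rpt6). The non-ATPase genes spanned 4.72 CPM per kb for Psmd3 (Rpn3) to 34.4 for Psmd1 (Rpn2), the scaffold of the base. The immunoproteasome beta genes lay in the lower part of the order, with medians of 13.2 CPM per kb for Psmb10, 12.5 for Psmb8 and 6.50 for Psmb9. Of the activators, Psme2 stood at 27.3 CPM per kb, and Psme3 (PA28 gamma) and Psme4 (PA200) at 14.2 and 14.1. The chaperones that assemble the regulatory particle were low, at 6.29 CPM per kb for Psmd10, 2.19 for Psmd9 and 2.05 for Psmd5, and the 3 untested symbols were at 0.338 to 0.439 CPM per kb. Neighbours in this order often did not differ beyond their spread: Psma4 and Psmb6 averaged 67.1 ± 22.9 and 63.2 ± 31.8 CPM per kb in TRAF6i-HDL, and 74.3 ± 21.8 and 55.8 ± 20.1 in PBS (SD, n = 10 each).

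**Figure D1:**
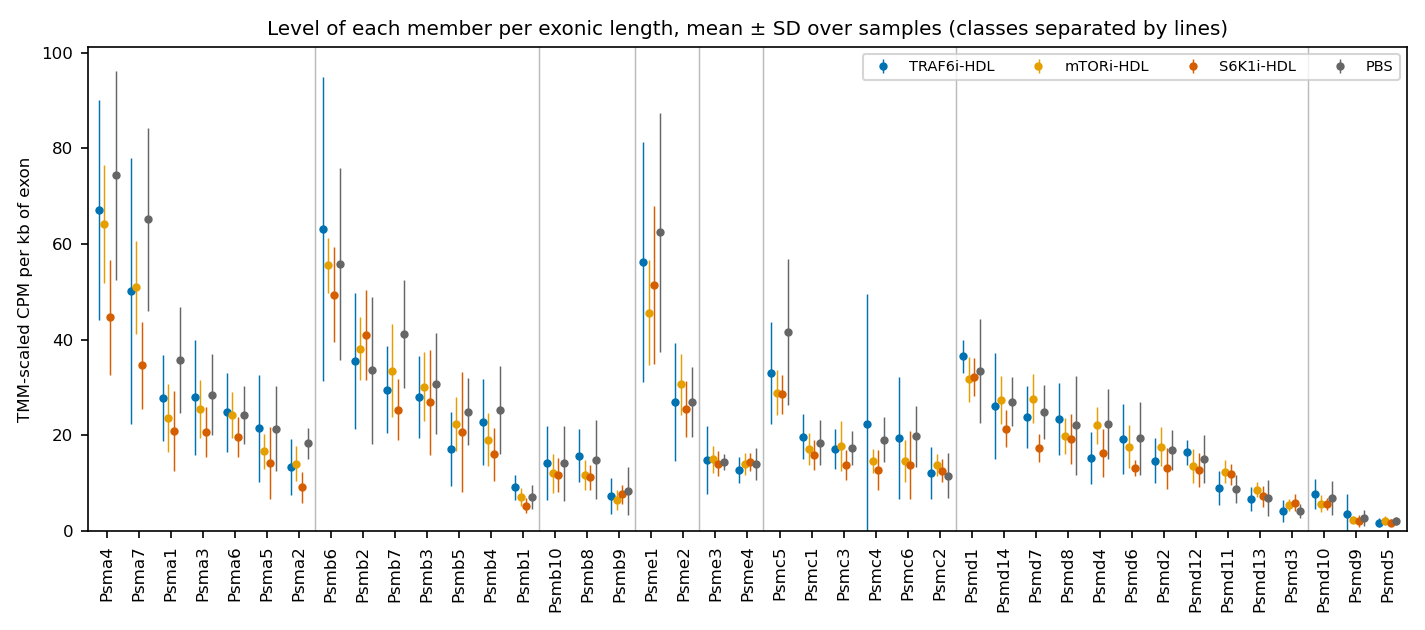
Transcript level of the proteasome genes in TMM-scaled CPM per kilobase of exonic length, grouped by class, with the mean and SD of each group of samples. Psme2b and the 3 untested symbols are not shown. Psma4 and Psmb6 have the highest medians over all samples, at 60.7 and 55.4 CPM per kb. The regulatory-particle chaperones Psmd9 and Psmd5 have the lowest of the genes shown, at 2.19 and 2.05 CPM per kb.

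The upstream 250 bases of 5 genes are printed here as reference sequence, to set genes that were lower in S6K1i-HDL samples (Psma1, Psma3 and Psmb4) beside a core gene (Psmb6) and an immunoproteasome gene (Psme2) that did not pass the test. They are RefSeq promoter sequences on GRCm38.p6, 5′ to 3′ on the strand of the gene and ending at the base before its RefSeq start. By the GENCODE gene models some windows hold exonic bases, 12 for Psme2, 3 for Psmb4, 2 each for Psma1 and Psma3 and 0 for Psmb6. Capitals mark a CCAAT box (CCAAT, or ATTGG where it lies on the other strand) or the core of an antioxidant response element (TGACNNNGC), the element through which NFE2L1 (also called NRF1 or TCF11) and its relatives act on proteasome genes.
Psma1, chr7:114276117-114276366, minus strand: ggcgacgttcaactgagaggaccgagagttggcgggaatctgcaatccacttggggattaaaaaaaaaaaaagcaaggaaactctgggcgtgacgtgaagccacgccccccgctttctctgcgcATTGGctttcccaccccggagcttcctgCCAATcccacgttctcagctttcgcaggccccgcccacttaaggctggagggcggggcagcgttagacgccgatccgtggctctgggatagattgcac
Psma3, chr12:70974373-70974622, plus strand: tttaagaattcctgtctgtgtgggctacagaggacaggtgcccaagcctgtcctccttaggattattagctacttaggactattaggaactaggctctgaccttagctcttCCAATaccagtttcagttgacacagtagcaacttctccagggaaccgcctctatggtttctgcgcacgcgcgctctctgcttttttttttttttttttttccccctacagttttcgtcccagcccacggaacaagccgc
Psmb4, chr3:94886959-94887208, minus strand: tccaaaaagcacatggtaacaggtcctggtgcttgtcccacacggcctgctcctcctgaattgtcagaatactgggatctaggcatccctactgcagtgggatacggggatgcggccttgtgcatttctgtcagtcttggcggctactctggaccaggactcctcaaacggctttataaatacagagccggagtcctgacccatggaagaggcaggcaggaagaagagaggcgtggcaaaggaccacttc
Psmb6, chr11:70525107-70525356, plus strand: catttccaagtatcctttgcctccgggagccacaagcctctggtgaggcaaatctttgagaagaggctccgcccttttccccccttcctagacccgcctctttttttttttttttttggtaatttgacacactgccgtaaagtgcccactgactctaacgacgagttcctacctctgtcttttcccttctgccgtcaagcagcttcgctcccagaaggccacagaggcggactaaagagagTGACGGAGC
Psme2, chr14:55591102-55591351, minus strand: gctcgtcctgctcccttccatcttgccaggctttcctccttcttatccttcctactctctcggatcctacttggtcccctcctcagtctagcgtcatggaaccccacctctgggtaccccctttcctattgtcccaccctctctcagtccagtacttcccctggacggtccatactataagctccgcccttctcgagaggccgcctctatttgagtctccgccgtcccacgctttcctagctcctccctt
The CCAAT boxes start 126 and 98 bases before the start of Psma1 and 139 bases before that of Psma3. The response element core of Psmb6 starts 9 bases before its start, and the windows of Psmb4 and Psme2 hold neither motif. Of the 45 genes 38 have a promoter in the table, among them 7 of the 9 that were lower in S6K1i-HDL. On either strand, CCAAT stood in 4 of these 7 (Psma1, Psma2, Psma3 and Psma7), in 10 of 25 core and regulatory genes, in 1 of 5 immunoproteasome genes (Psmb9) and in 33.8% of all 32851 promoters of the table. TGACNNNGC stood in Psmb5, Psmb6, Psmc6 and Psmd12, which is 4 of the 25 core and regulatory genes, 1 of the 7 lower genes and 10.2% of all promoters. The core of the interferon-stimulated response element, searched as GAAA, any 2 bases and GAAA, was found in Psmb3 and Psmd4 and in 2.98% of all promoters. These are matches of letters, not measured binding sites, and overlaps between motifs were allowed. For 36 of 41 promoter entries of these genes, bases just past the start lay in the start of a GENCODE transcript of the gene. The entries of Psma7, Psmc5, Psmd13, Psmb8 and Psme2b did not match in this way, so their windows are less certain.

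S6K1i-HDL was set against PBS to ask how transcript levels differ under the S6K1 inhibitor. Transcripts of the core particle were lower in S6K1i-HDL samples, with 5 of 7 alpha genes and 2 of 7 constitutive beta genes past the threshold (edgeR quasi-likelihood test, Benjamini-Hochberg adjusted p under 0.05 over 10411 genes). In all, 9 of 42 proteasome genes were lower and 0 were higher, a share of 21.4% lower. Over all genes tested 6.47% were called lower, 5.46% higher and 11.9% in either direction. The proteasome genes had a median log2 fold change of -0.30, with 37 of 42 below 0, against a median of 0.0032 over all genes. The alpha genes had the lowest median of the classes, at -0.62 (range -0.92 to -0.30, 7 of 7 below 0), and the constitutive beta genes stood at -0.47 (range -0.67 to 0.08, 6 of 7 below 0). When each of the 39 libraries was left out in turn the count of lower proteasome genes was 5 to 11, with 5 without S6K1i-HDL replicate 3, S6K1i-HDL replicate 6 or PBS replicate 3. Psma1, Psma2, Psma4, Psma7 and Psmb7 passed in all 39 of these fits, and Psma3, Psmd7, Psmc6 and Psmb4 in 34, 34, 28 and 24.

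Psma2, the alpha 2 subunit, fell furthest. Its lowest, median and highest levels were 15.8, 22.8 and 43.2 CPM in S6K1i-HDL samples, against 43.0, 51.2 and 70.4 CPM in PBS samples. The ranges touch only at their ends, and all 9 S6K1i-HDL samples were below the PBS mean. The log2 fold change was -0.92 ± 0.19 (SE, edgeR adjusted p = 0.00154), a level 0.528 times that in PBS. In TRAF6i-HDL samples Psma2 had 21.6, 32.2 and 76.9 CPM, and in mTORi-HDL samples 27.7, 38.9 and 64.0 CPM, between the other groups by median.

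Psma7, the alpha 4 subunit, had 23.7, 40.2 and 56.7 CPM in S6K1i-HDL, against 56.2, 67.9 and 125 CPM in PBS, again with all 9 samples below the PBS mean and a bare overlap. Its log2 fold change was -0.79 ± 0.18 (edgeR adjusted p = 0.0033). Psma1, the alpha 6 subunit, had 14.7, 23.7 and 48.0 CPM in S6K1i-HDL, against 22.2, 42.4 and 62.2 CPM in PBS. It fell by 0.74 ± 0.21 on the log2 scale (edgeR adjusted p = 0.0147), with 8 of 9 samples below the PBS mean.

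Psma4, the alpha 3 subunit and the most abundant of the set per kilobase, had 15.8, 54.1 and 62.0 CPM in S6K1i-HDL, against 48.0, 95.3 and 114 CPM in PBS. The lowest S6K1i-HDL value was the library of replicate 1, where Psma4 rested on 2 counts. The log2 fold change was -0.62 ± 0.16 (edgeR adjusted p = 0.0106), with 9 of 9 samples below the PBS mean. Psma3, the alpha 7 subunit, had 49.9, 52.1 and 94.9 CPM in S6K1i-HDL, against 60.4, 74.1 and 142 CPM in PBS, and a log2 fold change of -0.54 ± 0.17 (edgeR adjusted p = 0.0297). The 2 alpha genes that did not pass had log2 fold changes of -0.47 ± 0.23 for Psma5 (alpha 5, edgeR adjusted p = 0.181) and -0.30 ± 0.17 for Psma6 (alpha 1, adjusted p = 0.228).

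In the beta ring, Psmb7 (beta 2, the trypsin-like site) and Psmb4 (beta 7, a structural subunit) fell. Psmb7 had 19.7, 29.1 and 39.5 CPM in S6K1i-HDL samples, against 30.6, 46.3 and 69.4 CPM in PBS samples, so that the groups overlapped while all 9 samples lay below the PBS mean. Its log2 fold change was -0.67 ± 0.19 (edgeR adjusted p = 0.0132). Part of the annotated Psmb7 exons, 405 bases, lies opposite exons of Nek6 on the other strand, and the sources used here do not say whether counting used strand, so reads of the pair cannot be told apart there. Psmb4 had 7.91, 19.2 and 30.3 CPM in S6K1i-HDL, against 12.6, 29.4 and 45.3 CPM in PBS, with a log2 fold change of -0.61 ± 0.21 (edgeR adjusted p = 0.0449). The call of Psmb4 held in 24 of the 39 fits with one library left out. The chymotrypsin-like Psmb5 lay just outside the threshold, at -0.52 ± 0.20 (edgeR adjusted p = 0.0816), with 8.50, 16.3 and 47.4 CPM against 12.6, 23.1 and 33.2 CPM in PBS. Psmb1 (beta 6) stood at -0.47 ± 0.19 (adjusted p = 0.0945), the caspase-like Psmb6 at -0.24 ± 0.17 (adjusted p = 0.374) and Psmb2 (beta 4) at 0.08 ± 0.18 (adjusted p = 0.811).

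In the regulatory particle 1 of 6 ATPase genes and 1 of 11 non-ATPase genes were called lower, beside 6.47% of all genes. Psmc6 (Rpt4) had 17.1, 26.3 and 71.2 CPM in S6K1i-HDL, against 28.3, 42.4 and 72.1 CPM in PBS, and a log2 fold change of -0.62 ± 0.21 (edgeR adjusted p = 0.0393), although its highest S6K1i-HDL sample reached the top of the PBS range. Its call held in 28 of the 39 fits with one library left out. All 6 ATPase genes had a log2 fold change below 0, with a median of -0.37. Psmd7 (Rpn8), the partner of the deubiquitinase subunit, had 22.1, 27.5 and 34.3 CPM in S6K1i-HDL, against 24.9, 41.3 and 54.5 CPM in PBS, with 9 of 9 samples below the PBS mean and a log2 fold change of -0.50 ± 0.16 (edgeR adjusted p = 0.0271). The deubiquitinase itself, Psmd14 (Rpn11), stood at -0.27 ± 0.15. The non-ATPase genes had a median of -0.21 and the widest range of any class, from -0.50 for Psmd7 to 0.60 for Psmd3.

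Psmd3 (Rpn3) lay on the other side. It had 7.53, 13.3 and 18.1 CPM in S6K1i-HDL, against 4.35, 8.98 and 13.4 CPM in PBS, and its log2 fold change of 0.60 ± 0.24 did not pass (edgeR adjusted p = 0.0862). It passed when PBS replicate 10 or S6K1i-HDL replicate 9 was left out. Psmc5 (Rpt6), with a log2 fold change of -0.46 ± 0.17, was the member with the smallest adjusted p above the threshold (0.0594). The genes of the alternative caps had values close to 0, at 0.0099 ± 0.15 for Psme3 (edgeR adjusted p = 0.981) and 0.0058 ± 0.13 for Psme4 (adjusted p = 0.986). Psmd5, Psmd9 and Psmd10, the assembly chaperones, had a median of -0.31 with 0 called.

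**Figure D2:**
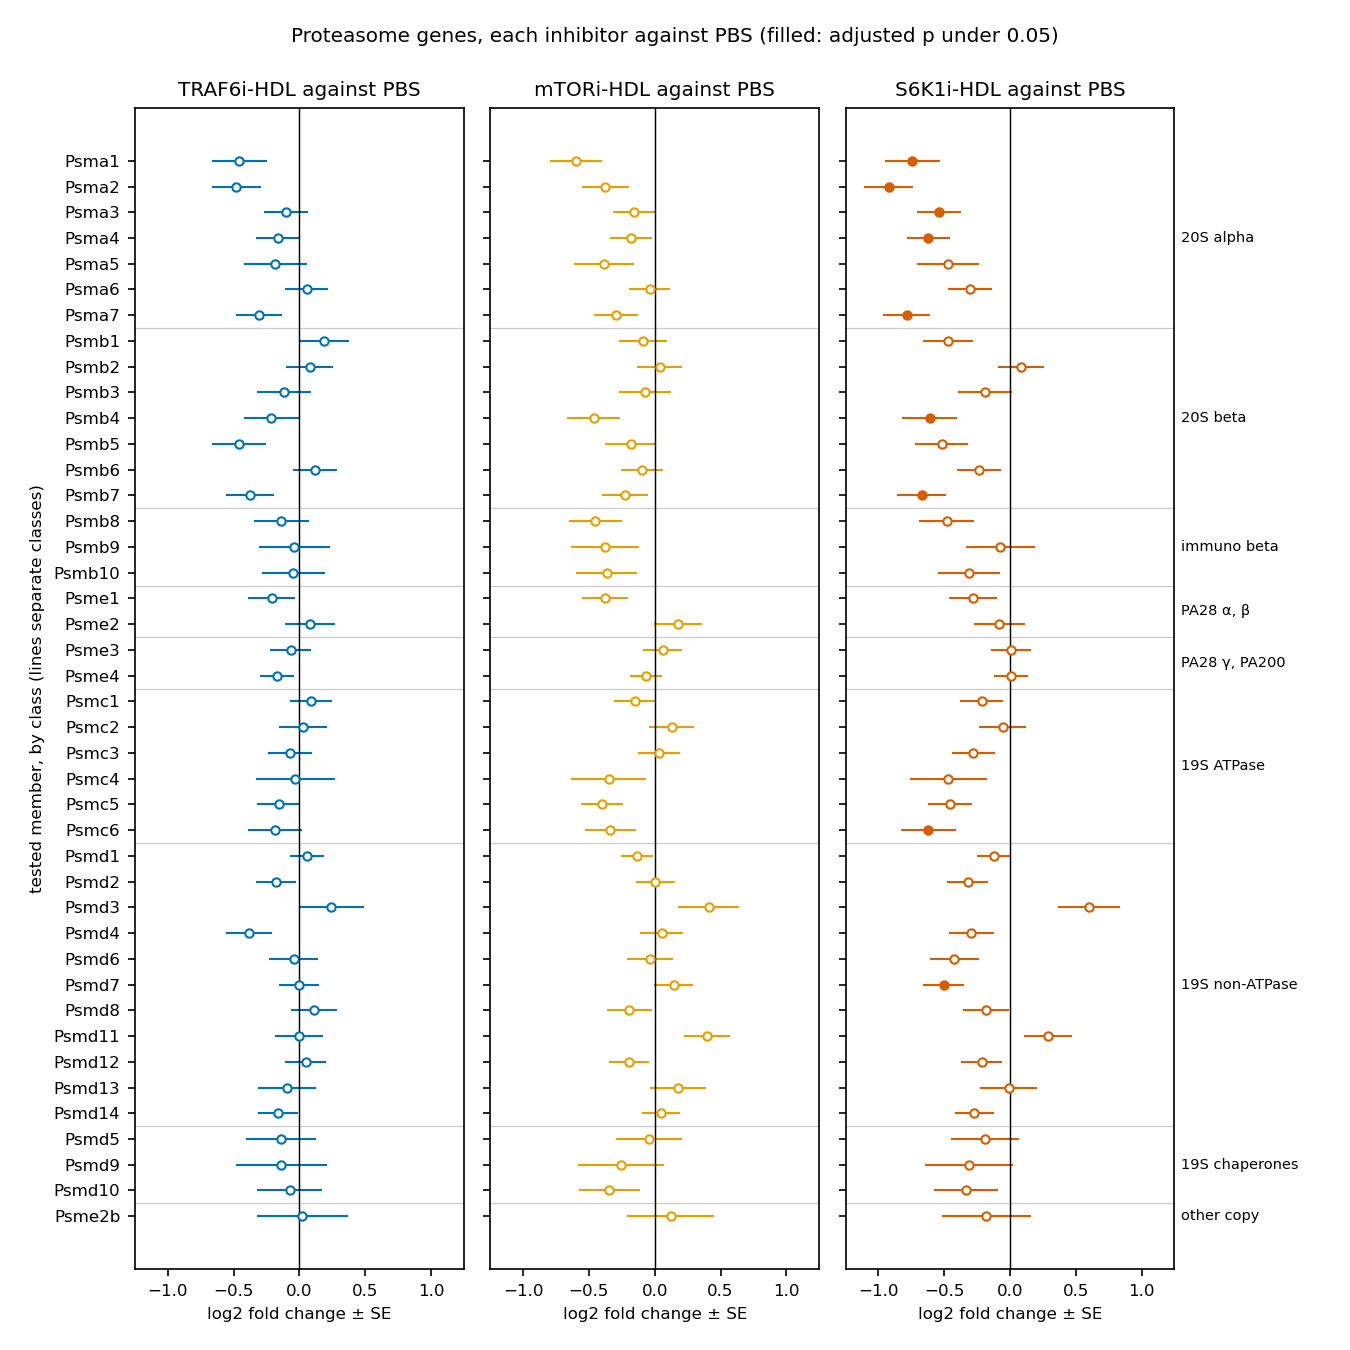
Log2 fold change with its standard error for the 42 tested proteasome genes, by class, in TRAF6i-HDL, mTORi-HDL and S6K1i-HDL against PBS. Filled points passed the edgeR test at an adjusted p under 0.05: 9 in S6K1i-HDL, all below 0, of which 5 are alpha genes, and 0 in TRAF6i-HDL and mTORi-HDL.

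**Figure D3:**
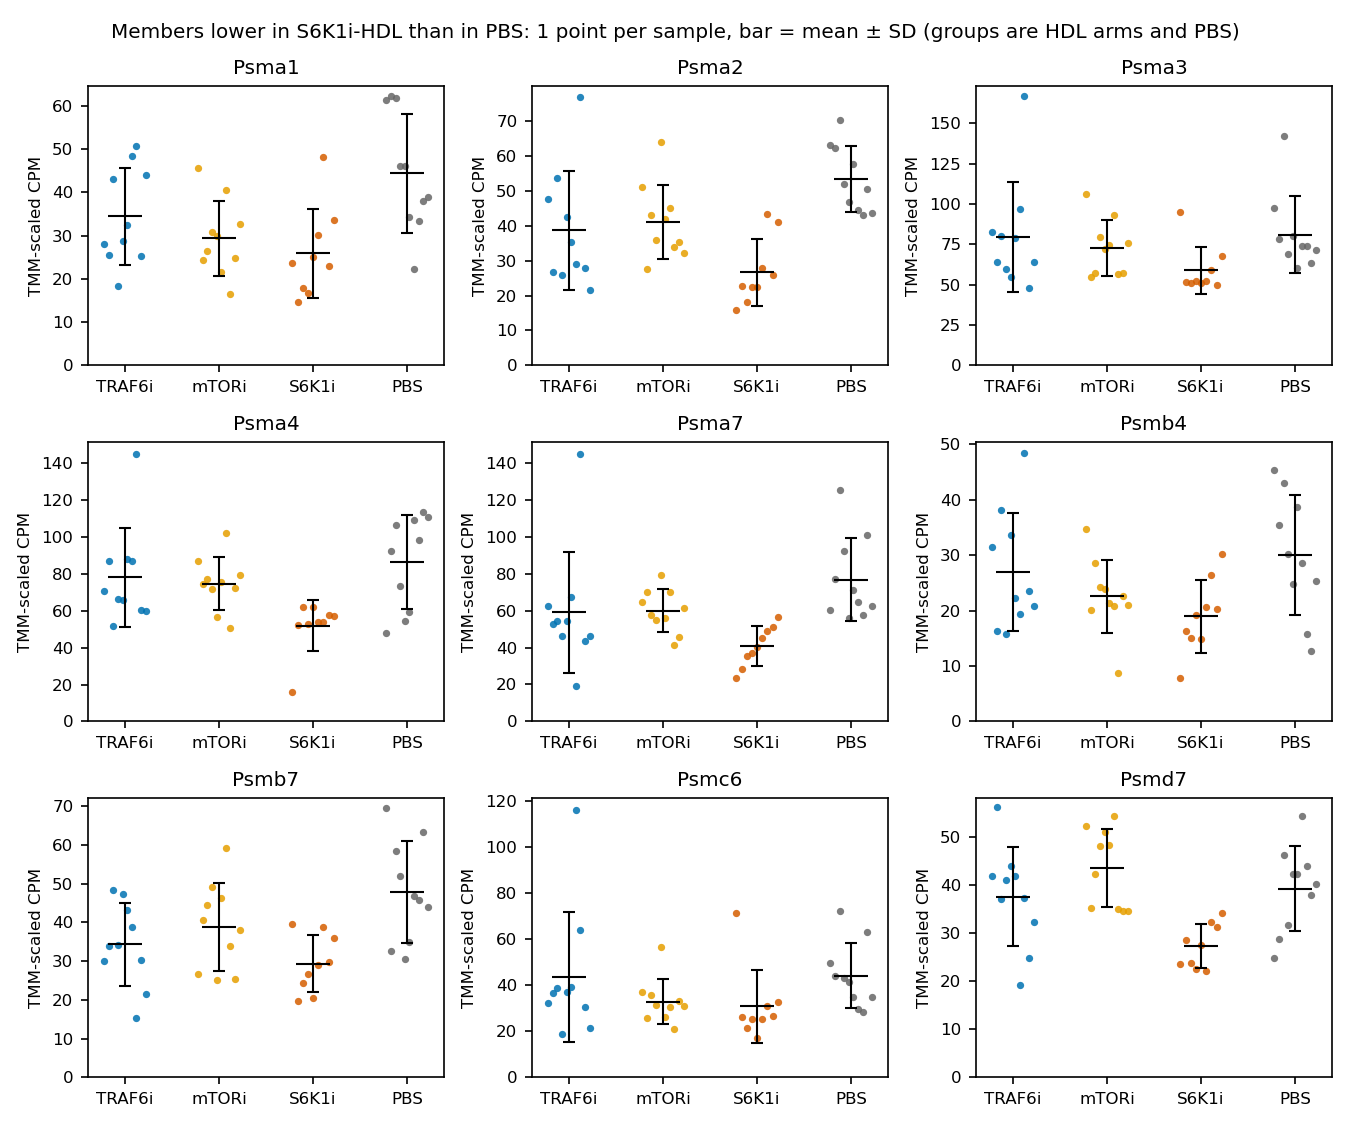
Level in TMM-scaled CPM of the 9 proteasome genes that were lower in S6K1i-HDL than in PBS, one point per sample, with the mean and SD of each of the 4 groups. The S6K1i-HDL samples overlap the PBS range for each gene, with the smallest overlap for Psma2 (highest S6K1i-HDL sample 43.2 CPM, lowest PBS sample 43.0 CPM).

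The composition of the particle's transcripts was described from the same counts. Alpha genes took 19.7 ± 1.76% of all counts in subunits of the core, its immune forms and its caps in S6K1i-HDL (range 16.9 to 22.7%), against 25.5 ± 2.59% in PBS (range 22.9 to 30.6%; SD, n = 9 and 10). These ranges did not overlap. TRAF6i-HDL and mTORi-HDL lay between them by mean, at 23.2 ± 4.47% and 22.96 ± 2.05%. Their ranges, 19.1 to 35.0% and 19.2 to 26.5%, overlapped both PBS and S6K1i-HDL. The share of the constitutive beta genes was 14.4%, 14.6%, 14.6% and 14.3% in TRAF6i-HDL, mTORi-HDL, S6K1i-HDL and PBS, and that of the regulatory genes 44.0%, 44.4%, 44.7% and 42.1%. The log2 ratio of alpha to regulatory counts within a sample, which does not depend on how libraries are scaled, was -1.18 ± 0.16 in S6K1i-HDL, against -0.73 ± 0.18 in PBS, with overlap from -0.96 to -0.86. The summed level of the 7 alpha genes was 190, 242 and 320 CPM at its lowest, median and highest in S6K1i-HDL, against 348, 381 and 587 CPM in PBS, so that every S6K1i-HDL sample was below every PBS sample. The sum was 253, 328 and 657 CPM in TRAF6i-HDL and 235, 327 and 411 CPM in mTORi-HDL. The alpha share, the ratio and the sums all hold genes that the test above had already called. They are given as a description and add no separate support.

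Other properties of the libraries moved with the same groups. Rn45s, the 45S ribosomal RNA precursor, took 37.0 ± 10.3% of counts in S6K1i-HDL (14.5 to 47.5%), against 13.0 ± 10.9% in PBS (2.28 to 30.0%), with 17.8 ± 8.31% in TRAF6i-HDL and 23.1 ± 7.81% in mTORi-HDL. Its log2 fold change in S6K1i-HDL against PBS was 1.91 ± 0.45 (edgeR adjusted p = 0.00469). With the log2 share of Rn45s in the model, 0 of 42 proteasome genes passed in S6K1i-HDL against PBS (7 at an unadjusted p under 0.05, 31 of 42 below 0), where 38 genes passed in all. The median over the proteasome genes was then -0.21 and that of the alpha genes -0.26. Psma4 stood at -0.64 ± 0.19 (edgeR adjusted p = 0.0928), Psmb7 at -0.55 ± 0.22 (0.271) and Psmd7 at -0.50 ± 0.18 (0.213), each close to its value without the term. Psma2 stood at -0.30 ± 0.17 (0.495), Psma7 at -0.27 ± 0.17 (0.563), Psma1 at -0.16 ± 0.22 (0.849) and Psma3 at -0.07 ± 0.17 (0.930), each less far below 0 than without it. Psmb4 and Psmc6 came to 0.03 ± 0.21 and 0.0022 ± 0.22.

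**Figure D4:**
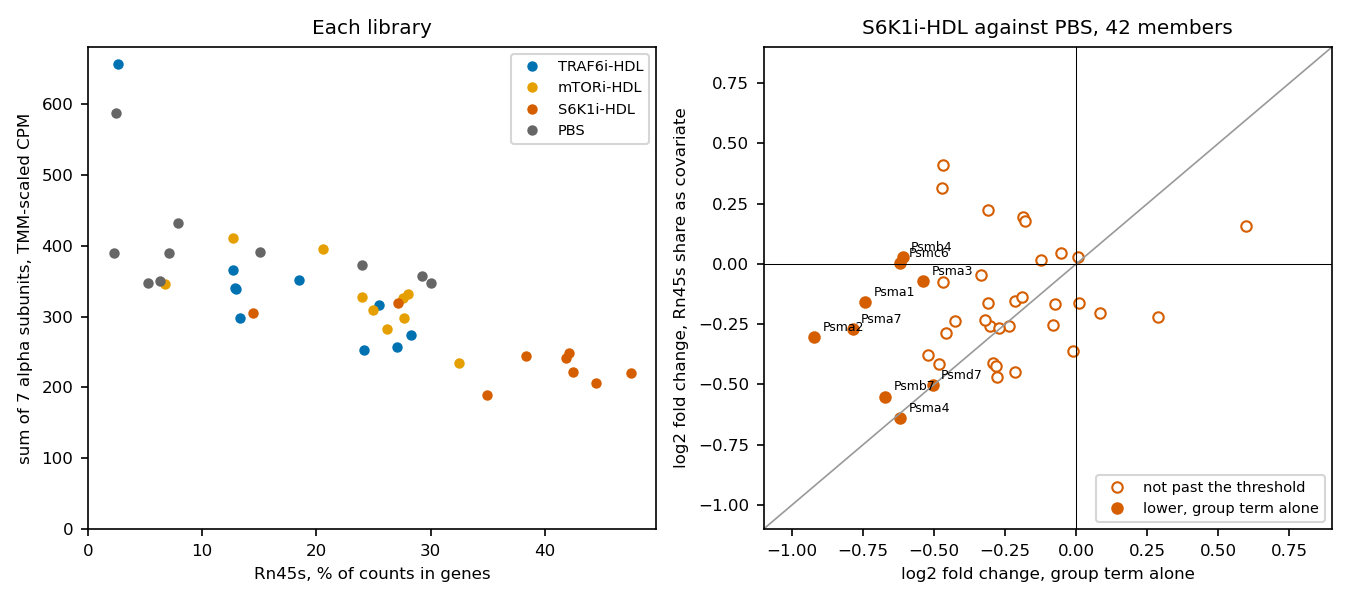
Left, the share of counts in Rn45s (percent) against the summed level of the 7 alpha genes (TMM-scaled CPM), one point per library, in the 4 groups. Right, the log2 fold change in S6K1i-HDL against PBS of the 42 tested proteasome genes with the log2 Rn45s share in the model against that without it, where Psma4, Psmb7 and Psmd7 lie near the diagonal and Psma2, Psma7 and Psma1 lie closer to 0 with the term.

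By median, the 9 lower genes were shorter and poorer in GC than the other proteasome genes. Their exonic length had a median of 1241 bases (1160 to 2911) and their GC content one of 45.3%, against 1591 bases (766 to 6491) and 50.7% for the other 33 tested proteasome genes. All tested genes with a value had medians of 3572 bases and 49.3%. With offsets that remove each library's own dependence on GC content and length, Psma2 (-0.69 ± 0.15, edgeR adjusted p = 0.00576) and Psma7 (-0.56 ± 0.15, adjusted p = 0.0212) passed, 2 of 42. In this setting 526 genes passed in all, 5.05% of those tested in either direction and 3.05% lower. The median over the proteasome genes was then -0.15, with 28 of 42 below 0, and that of the alpha genes -0.31. S6K1i-HDL replicates 1 to 6 and 7 to 9 are listed apart in the series. Against PBS, replicates 1 to 6 gave 13 lower proteasome genes (7.91% of all genes lower; alpha median -0.78). Replicates 7 to 9 gave 0 proteasome genes and 1 gene in all (alpha median -0.46), and between the sets 2 genes in all and 0 proteasome genes passed. The part of the Rn45s share, of base composition and length, of depth and of these sets in the lower levels was not tested.

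None of the 5 immunoproteasome genes passed the edgeR test against PBS in TRAF6i-HDL, mTORi-HDL or S6K1i-HDL. Over all genes 0.0192%, 1.64% and 11.9% passed in these comparisons. Psmb8, the immune chymotrypsin-like subunit, had a lowest, median and highest level of 16.6, 23.7 and 48.4 CPM in TRAF6i-HDL, 10.4, 19.2 and 26.8 CPM in mTORi-HDL, 12.0, 17.7 and 26.2 CPM in S6K1i-HDL and 10.1, 22.7 and 57.7 CPM in PBS. All 3 inhibitor groups lay within the wide PBS range, whose top is PBS replicate 2, the sample with the highest immunoproteasome share of the particle's counts (15.0%). Its log2 fold changes against PBS were -0.14 ± 0.21, -0.45 ± 0.20 and -0.48 ± 0.21 (edgeR adjusted p = 0.86, 0.22 and 0.118). Without PBS replicate 2 they were 0.13 ± 0.20, -0.17 ± 0.19 and -0.21 ± 0.20, and those of Psmb9 0.35 ± 0.26, 0.019 ± 0.25 and 0.32 ± 0.26.

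Psmb9, the immune counterpart of Psmb6, had medians of 9.90 CPM in TRAF6i-HDL, 8.43 in mTORi-HDL, 10.1 in S6K1i-HDL and 9.48 in PBS. Its PBS range was 4.38 to 28.8 CPM. Its log2 fold changes were -0.04 ± 0.27, -0.38 ± 0.26 and -0.07 ± 0.26 (edgeR adjusted p = 0.986, 0.451 and 0.897). A stretch of 212 bases of its exons lies opposite Tap1, the peptide transporter of the same pathway. Psmb10, the immune trypsin-like subunit, had medians of 17.96, 15.3, 14.4 and 19.7 CPM in TRAF6i-HDL, mTORi-HDL, S6K1i-HDL and PBS, and was at 0 counts in 1 TRAF6i-HDL and 1 PBS library, both under 200000 counts. Its log2 fold changes were -0.05 ± 0.24, -0.37 ± 0.23 and -0.31 ± 0.24 (edgeR adjusted p = 0.98, 0.407 and 0.415). The series lists mTORi-HDL replicates 1 to 4 and 5 to 10 apart, and against PBS Psmb10 stood at 0.07 ± 0.28 in the first set and -0.72 ± 0.26 in the second, and Psmb8 at -0.20 ± 0.25 and -0.64 ± 0.22. Between the sets Psmb10 differed by 0.79 ± 0.30, which did not pass (edgeR adjusted p = 0.403).

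Psme1 (PA28 alpha) was the most abundant of the 5, at 37.9, 54.8 and 135 CPM in TRAF6i-HDL, 36.8, 47.4 and 73.3 CPM in mTORi-HDL, 36.6, 49.1 and 94.9 CPM in S6K1i-HDL and 38.2, 60.7 and 126 CPM in PBS. Its log2 fold changes were -0.21 ± 0.18, -0.38 ± 0.17 and -0.28 ± 0.18 (edgeR adjusted p = 0.708, 0.233 and 0.314). Its partner Psme2 (PA28 beta) had medians of 26.7, 31.2, 23.7 and 25.4 CPM in the same order, and log2 fold changes of 0.08 ± 0.19, 0.17 ± 0.18 and -0.08 ± 0.19 (adjusted p = 0.929, 0.65 and 0.832). Reads of Psme2 may be split with Psme2b, a near copy whose medians were 8.70, 8.81, 7.91 and 7.06 CPM, so both levels are uncertain.

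Transcripts of immune and constitutive subunits were set against each other as log2 ratios of counts within a sample. Such ratios do not measure the exchange of subunits in the particle. In bulk samples they also cannot tell the mix of cells from the level per cell. Psmb8 to Psmb5 was 0.75 ± 1.05 in TRAF6i-HDL, -0.08 ± 0.48 in mTORi-HDL, 0.12 ± 0.65 in S6K1i-HDL and 0.01 ± 0.92 in PBS. The high TRAF6i-HDL mean includes replicate 7, at 3.46 with 0 counts of Psmb5, and is 0.45 ± 0.47 without the low library. Without their low libraries PBS stood at 0.02 ± 0.98 and S6K1i-HDL at 0.31 ± 0.35. Psmb9 to Psmb6 was -2.22 ± 0.71, -2.40 ± 0.58, -1.89 ± 0.47 and -2.005 ± 1.01 in TRAF6i-HDL, mTORi-HDL, S6K1i-HDL and PBS, and Psmb10 to Psmb7 -0.95 ± 1.15, -1.31 ± 0.60, -0.90 ± 0.48 and -1.45 ± 1.15. These values also moved when the low libraries were left out. Psmb9 to Psmb6 was then -2.29 ± 0.72 in TRAF6i-HDL, -1.93 ± 0.49 in S6K1i-HDL and -2.23 ± 0.77 in PBS. Psmb10 to Psmb7 was -0.71 ± 0.89, -0.78 ± 0.33 and -1.22 ± 0.96 in the same order. The groups overlapped in each ratio. The 5 immunoproteasome genes together took 9.79 ± 1.60%, 8.81 ± 1.59%, 10.3 ± 1.44% and 9.70 ± 2.78% of the particle's counts. In S6K1i-HDL against PBS their median log2 fold change was -0.28, beside -0.53 for the constitutive core genes and -0.27 for the regulatory genes; the difference between these classes was not tested.

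**Figure D5:**
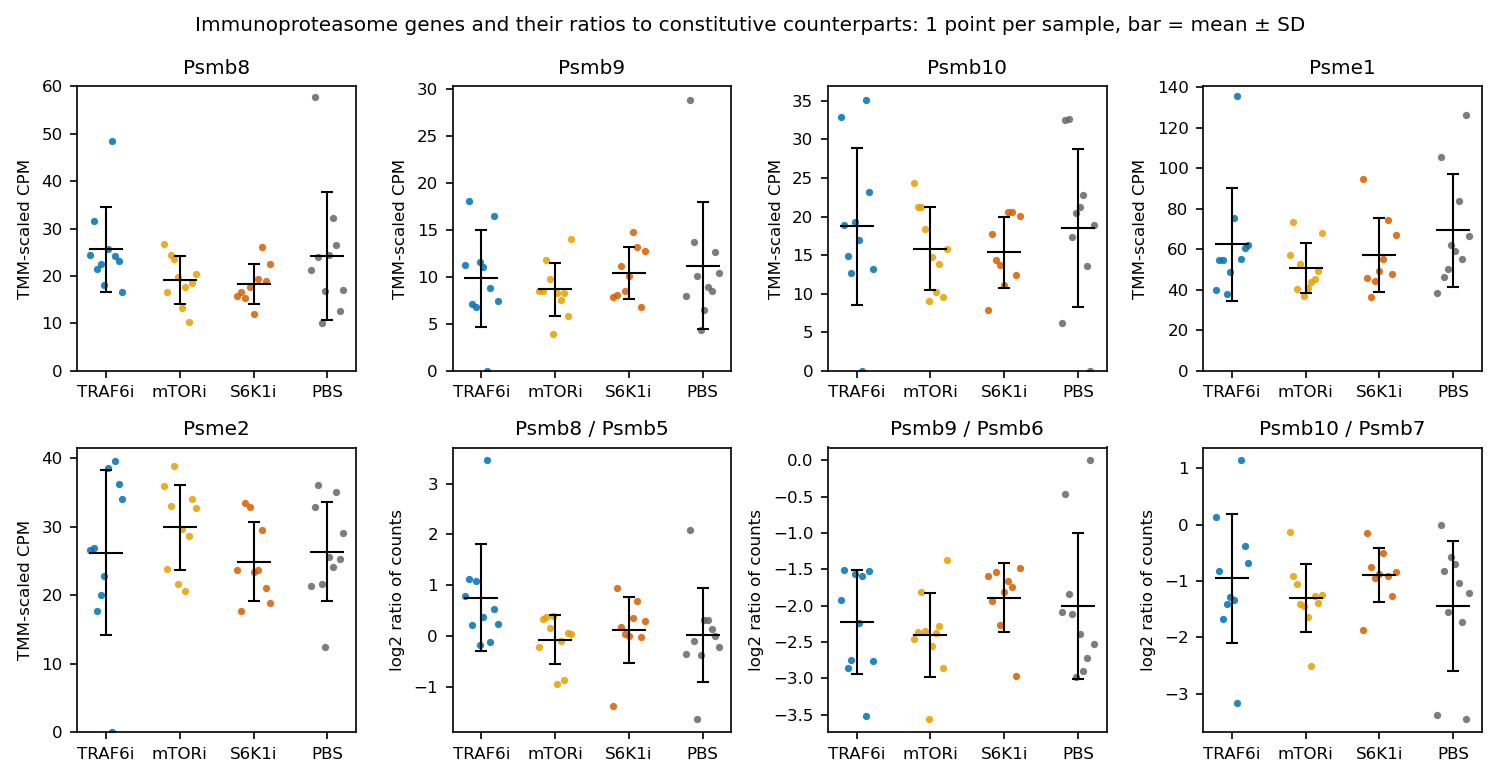
Level in TMM-scaled CPM of the 5 immunoproteasome genes and the log2 ratio of each immune beta gene to its constitutive counterpart, one point per sample, with the mean and SD of the 4 groups. The groups overlap in every panel.

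mTORi-HDL was set against PBS to ask the same of the mTOR inhibitor. Here 0 of 42 proteasome genes passed, where 1.64% of all genes passed. At an unadjusted p under 0.05 there were 7 of 42, beside 1831 of 10411 genes. The median log2 fold change was -0.14 with 29 of 42 below 0, and the alpha genes had a median of -0.29 with 7 of 7 below 0. Psma1 came closest, with 16.5, 28.2 and 45.6 CPM in mTORi-HDL, against 22.2, 42.4 and 62.2 CPM in PBS and a log2 fold change of -0.60 ± 0.20 (edgeR adjusted p = 0.0919). Psmc5 had 30.1, 37.8 and 50.6 CPM, against 33.6, 54.9 and 101 CPM in PBS, at -0.40 ± 0.16 (adjusted p = 0.163), and Psmb4 stood at -0.46 ± 0.20 (adjusted p = 0.209).

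Of the genes above 0, Psmd11 (Rpn6, a subunit that stabilises the joint of cap and core) had 29.4, 34.3 and 52.9 CPM in mTORi-HDL, against 12.6, 28.3 and 40.0 CPM in PBS, at 0.40 ± 0.17 (edgeR adjusted p = 0.213). Psmd3 stood at 0.41 ± 0.23 (adjusted p = 0.352) and Psmd7 at 0.14 ± 0.15 (adjusted p = 0.643). The non-ATPase genes had a median of 0.05, with 4 of 11 below 0.

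TRAF6i-HDL against PBS gave 0 of 42 proteasome genes past the threshold and 5 at an unadjusted p under 0.05, where 2 of 10411 genes (0.0192%) passed in all and 1158 had an unadjusted p under 0.05. The median log2 fold change was -0.09, and 30 of 42 were below 0. The lowest p belonged to Psma2, at -0.48 ± 0.19 (edgeR adjusted p = 0.322), followed by Psmb5 at -0.46 ± 0.20 (adjusted p = 0.378) and the ubiquitin receptor Psmd4 (Rpn10) at -0.38 ± 0.17 (adjusted p = 0.396). Psmd4 had 9.68, 28.1 and 48.6 CPM in TRAF6i-HDL, against 21.3, 40.9 and 70.4 CPM in PBS. On the other side stood Psmd3 at 0.24 ± 0.25, Psmb1 at 0.19 ± 0.19 and Psmb6 at 0.12 ± 0.17 (adjusted p = 0.759, 0.756 and 0.85).

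The pairs of inhibitors, compared directly, differed in 1 proteasome gene. Psmd7 had 34.7, 45.3 and 54.4 CPM in mTORi-HDL, against 22.1, 27.5 and 34.3 CPM in S6K1i-HDL, and the groups did not overlap. Its log2 fold change was 0.65 ± 0.15 (edgeR adjusted p = 0.00362), while 3.5% of all genes were called higher and 6.18% called in either direction in this comparison. It also passed with the Rn45s share in the model (0.65 ± 0.15, adjusted p = 0.00289) and with the offsets for GC content and length (0.63 ± 0.14, adjusted p = 0.0033). In the same comparison 3 of 6 endothelial markers (Cdh5, Tek and Pecam1; list median 0.72) and the macrophage markers Cd14 and Itgam were higher in mTORi-HDL, and Cd68, on which the regions were chosen, and the T cell marker Cd4 were lower; their part in the level of Psmd7 was not tested. In TRAF6i-HDL Psmd7 had 19.4, 39.2 and 56.4 CPM. The next genes in mTORi-HDL against S6K1i-HDL were Psma2 at 0.55 ± 0.18, Psma7 at 0.49 and Psma4 at 0.44 (adjusted p = 0.0552, 0.0726 and 0.0860).

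TRAF6i-HDL against S6K1i-HDL gave 0 proteasome genes, where 1.59% of all genes passed, and 10 of 42 at an unadjusted p under 0.05, beside 1642 of 10411 genes. Of the 42, 35 were above 0, and their median was 0.26. Psmb1 came closest, with 18.9, 28.4 and 48.4 CPM in TRAF6i-HDL, against 12.0, 15.9 and 26.5 CPM in S6K1i-HDL and a log2 fold change of 0.66 ± 0.19 (edgeR adjusted p = 0.0527). In TRAF6i-HDL against mTORi-HDL 0 passed, where 2.92% of all genes passed, and the median was 0.03. At an unadjusted p under 0.05 there were 2 of 42, beside 1735 of 10411 genes. The lowest p was that of Psmd4, at -0.43 ± 0.16 (adjusted p = 0.141). A test for any difference among the 4 groups called 6 of 42 proteasome genes, beside 12.5% of all genes: Psma2 (edgeR adjusted p = 0.00521), Psmd7 (0.0115), Psma7 (0.014), Psma4 (0.0362), Psma1 (0.0368) and Psmb7 (0.047). The comparisons with PBS share the PBS samples, and those with S6K1i-HDL share its samples.

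The genes that assemble, feed and regulate the proteasome were read from lists. In S6K1i-HDL against PBS, 3 of 18 tested assembly factors and substrate receptors were lower and 0 higher, with a median of -0.12, beside 6.47% lower and 5.46% higher over all genes. They were Pomp, the maturation chaperone of the core, at -0.59 ± 0.17 (edgeR adjusted p = 0.019), Shfm1 (Sem1, a small subunit of the regulatory particle) at -0.64 ± 0.19 (0.021) and Rad23b, a shuttle for ubiquitinated proteins, at -0.49 ± 0.14 (0.0147). Of 8 ubiquitin genes 2 were lower, among them Rps27a, which encodes ubiquitin fused to a ribosomal protein, at -1.20 ± 0.20 (0.000239), and 1 was higher, the ubiquitin-activating enzyme Uba1 at 0.39 ± 0.13 (0.04). Of 10 regulators of proteasome genes 2 were higher and 0 lower. Nfe2l1, the transcription factor that drives proteasome genes when proteasome activity is low, averaged 128 ± 19.7 CPM in S6K1i-HDL and 82.2 ± 23.4 CPM in PBS (SD), at 0.58 ± 0.14 (0.00471), and Foxo3 stood at 0.64 ± 0.20 (0.0276).

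Of 14 genes of MHC class I presentation, 4 were lower in S6K1i-HDL than in PBS and 0 higher, among them the class I heavy chain H2-D1 at -0.87 ± 0.25 (edgeR adjusted p = 0.0181). Of 24 interferon response genes 1 was higher (Oas2, 1.39 ± 0.34, adjusted p = 0.0062) and 1 lower (Irgm1, -0.99 ± 0.24, adjusted p = 0.00718). Over all genes 6.47% were called lower and 5.46% higher, shares above those of the interferon list. With the Rn45s share in the model 0 genes of these lists passed in this comparison: Nfe2l1 stood at 0.22 ± 0.15 (adjusted p = 0.613), Pomp at -0.37 ± 0.19 (0.436), Rps27a at -0.50 ± 0.17 (0.158) and H2-D1 at 0.02 ± 0.22 (0.993). In mTORi-HDL against PBS, where 1.64% of all genes passed, 0 of 18 assembly, 0 of 8 ubiquitin and 0 of 10 regulator genes passed. H2-T23, a nonclassical class I chain (-0.71 ± 0.18, adjusted p = 0.0232), and Irgm1 (-1.08 ± 0.23, adjusted p = 0.0112) were lower in this comparison. In TRAF6i-HDL against PBS, where 0.0192% of all genes passed, 0 genes of these lists passed.

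Markers of the cell types in the captured regions were read beside these results. In S6K1i-HDL against PBS 1 of 9 macrophage markers (Cd14, -0.75 ± 0.20, edgeR adjusted p = 0.0132) was lower and 1 of 4 smooth muscle markers (Smtn, 1.47 ± 0.30, adjusted p = 0.00208) higher. Over all genes 6.47% were called lower and 5.46% higher in this comparison. None of 6 endothelial, 5 fibroblast, 3 T cell, 2 neutrophil, 1 cardiac muscle and 1 erythroid markers tested passed, and no B cell or adipocyte marker was tested. In mTORi-HDL against PBS the macrophage marker Itgam was higher (0.71 ± 0.15, adjusted p = 0.00718) and Aif1 lower (-1.01 ± 0.22, adjusted p = 0.00931). No endothelial or T cell marker passed there, but each list leaned one way. All 6 endothelial markers were above 0 (median 0.46, 4 at an unadjusted edgeR p under 0.05). All 3 T cell markers tested were below 0 (median -1.19, 3 at that level), beside 1831 of 10411 genes at that level. In TRAF6i-HDL against PBS 0 markers passed. Of all genes, 1.64% passed in mTORi-HDL against PBS and 0.0192% in TRAF6i-HDL against PBS. Summed T cell markers were 48.4 to 89.0 CPM in TRAF6i-HDL, 8.75 to 60.3 CPM in mTORi-HDL, 23.7 to 108 CPM in S6K1i-HDL and 0 to 166 CPM in PBS. B cell and adipocyte markers reached at most 8.41 and 1.77 CPM in any library. The part of cell composition in the proteasome results was not tested.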

How the data were processed

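The files hold raw read counts per gene as deposited by the authors, 1 per sample, with 24062 symbols and 5 closing lines without a gene, which held 61.4 to 77.4% of reads and stayed out of all totals. TopHat2 2.1.0, Bowtie2 2.2.8 and HTSeq 0.6.1 are named, per the submitters' processing notes. The build named there is hg19, a human assembly that cannot underlie mouse symbols, and the mouse build, annotation and strand setting are not given in the sources used here. Exonic length, GC content and overlaps were therefore matched by symbol from GENCODE mouse gene models, and promoters from RefSeq (GRCm38.p6).

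All 39 samples were fitted together in R 4.3.3 with edgeR 4.0.16 (filterByExpr, TMM factors, 1 mean per group, robust quasi-likelihood F test) on 10411 genes, and Benjamini-Hochberg adjusted p-values under 0.05 were called. Log2 fold changes carry standard errors, and levels are CPM computed from the counts with TMM factors (SD over samples). Ratios within a sample used counts plus 0.5. No 2 libraries of a group agreed within sampling noise (171 pairs).

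Named were genes past the threshold in any test, immunoproteasome genes and their counterparts, the 3 smallest p-values in each direction against PBS, and the highest and lowest level of each class. Others, such as just-outside genes and overlaps, were picked after their values were seen. A gene of the ubiquitin list that was lower in S6K1i-HDL than in PBS and a promoter motif were left out of this naming and are not reported here. The members, classes and lists were chosen with earlier results of these data known. Alternatives were DESeq2 1.42.0 size factors and test, limma 3.58.1 voom, other filters, covariates, a replicate block, 2-group fits, an adjusted p under 0.2, and leaving out libraries. The Rn45s share together with leaving out libraries under 200000 counts, Rn45s left out of the counts and the offsets for GC content and length were added after the data were seen. Figures used Python 3.11.15 and matplotlib 3.10.9.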

Additional observations from a re-analysis of the deposited data

Results flagged for a closer look

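Of 92 sets of one named gene in one group, 21 had a sample whose gap to its nearest neighbour, as a share of the whole range of log2 CPM, was above the critical value for an outlier. Chance flags about 1 in 20 sets. In TRAF6i-HDL replicate 7, a library of 66602 counts, the lowest values were those of Psmb10 (0.742), Psmb2 (0.817), Psmb5 (0.752), Psmb9 (0.715) and Psme2 (0.801), each with 0 counts, and of Psmb6 (0.515) and Psmd4 (0.526), each with 1 count. In PBS replicate 9, with 50091 counts, they were Psmb10 (0.583) and Psmb2 (0.806) with 0 counts and Psmb6 (0.604) with 1 count. In S6K1i-HDL replicate 1, with 118527 counts, Psma4 (0.877, 2 counts) and Psmd4 (0.746, 1 count) were lowest, and Psma3 (0.521), Psmb5 (0.534) and Psmc6 (0.553) highest. The other flags lie in deeper libraries. In TRAF6i-HDL replicate 8, Psma4 was highest (0.488, 145 CPM from 66 counts), and Psmc5 (0.66), Psmd11 (0.596) and Psme3 (0.498) were lowest. PBS replicate 5 was lowest for Psme2 (0.504, 12.4 CPM), and mTORi-HDL replicate 8 for Psmb4 (0.597, 8.67 CPM from 20 counts). With the 3 libraries under 200000 counts left out, 9 proteasome genes passed in S6K1i-HDL against PBS.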

How the results depend on the processing

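In S6K1i-HDL against PBS, 9 proteasome genes passed in the fit reported. The count was 0 with the Rn45s share as a covariate, also without the 3 low libraries, 5 with detected genes as a covariate, 2 with offsets for GC content and length, and 17 at an adjusted p under 0.2. It was 6 to 13 in the other settings, and 5 to 11 with one library left out (5 without S6K1i-HDL replicate 3, S6K1i-HDL replicate 6 or PBS replicate 3). In mTORi-HDL against PBS 2 passed at an adjusted p under 0.2, and leaving out any one library gave 0, as it did in TRAF6i-HDL against PBS. TRAF6i-HDL against mTORi-HDL gave 1 at an adjusted p under 0.2 and 0 to 1 with one library left out. TRAF6i-HDL against S6K1i-HDL gave 2 with DESeq2, 2 with voom, 1 when only these 2 groups were fitted, 5 at an adjusted p under 0.2 and 0 to 2 with one library left out. mTORi-HDL against S6K1i-HDL (1) gave 7 with voom, 4 with only these groups, 9 at an adjusted p under 0.2, 2 with the offsets and 1 to 4 with one library left out. The test over 4 groups (6) gave 10 with voom, 3 without the low libraries, 2 with detected genes, 1 with the Rn45s share (also without the low libraries), 2 with the offsets, 15 at an adjusted p under 0.2 and 3 to 8 with one library left out. With the replicate block, 6 proteasome genes passed in S6K1i-HDL against PBS and 3 in the test over 4 groups. Counts over all genes moved with the setting as well. Over the 15 alternatives, S6K1i-HDL against PBS (1242 in the fit reported) gave 38 to 2996 genes. mTORi-HDL against PBS (171) gave 21 to 1169, and TRAF6i-HDL against PBS (2) gave 0 to 71. TRAF6i-HDL gave 264 to 1095 against mTORi-HDL (304) and 30 to 931 against S6K1i-HDL (166). mTORi-HDL against S6K1i-HDL (643) gave 552 to 1874. The replicate numbers gave no clear sign of pairing between samples. The 57 same-numbered pairs had a mean correlation of 0.011 (-0.21 to 0.29), 7 above 0.1, against 0.0030 for other numbers. Of 39 samples, 6 correlated best with their own number. Such correlations cannot show that there was no pairing.

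Some log2 fold changes turned round, many of them near 0 in the fit reported. In mTORi-HDL against PBS, those of Psmb9 (-0.38) and Psmb7 (-0.22) were further from 0. In S6K1i-HDL against PBS, so were those of Psmb4 (-0.61), Psmc6 (-0.62), Psmd11 (0.29) and Psmb6 (-0.24). Psmb4 and Psmc6 had been called lower in that fit. In TRAF6i-HDL against PBS, Psmb9 came to 0.10 with voom and 0.014 with the replicate block, and Psmb10 to 0.011 with the Rn45s share and 0.012 when the low libraries were also left out. In mTORi-HDL against PBS, Psme3 came to -0.047 and -0.052 under these Rn45s settings, and Psmb6 and Psmb7 to 0.029 and 0.059 with the offsets. In S6K1i-HDL against PBS, Psmb9 came to 0.039 with voom and 0.051 with the block, and Psme2 and Psmb6 to 0.24 and 0.029 with the offsets. Psme3 came to -0.0079 with the block, -0.013 with detected genes, -0.018 with the sets apart, and -0.16 and -0.17 under the Rn45s settings. Under those settings Psmb4 came to 0.030 and 0.026, Psmd11 to -0.22 and -0.26, and Psmb2 to -0.20 and -0.25, while Psmc6 came to 0.0022 with the Rn45s share and Psmb2 to -0.13 with detected genes. With one library left out, Psmb8, Psmb9, Psmb10, Psme2, Psmb6 and Psme3 in TRAF6i-HDL against PBS ranged over -0.22 to 0.13, -0.16 to 0.35, -0.16 to 0.088, -0.0082 to 0.15, -0.020 to 0.20 and -0.11 to 0.0043. Psmb9 ranged over -0.48 to 0.019 in mTORi-HDL and -0.17 to 0.32 in S6K1i-HDL against PBS, and Psme3 over -0.045 to 0.043 in S6K1i-HDL. The cause was not tested, except that smaller sets of samples have less power by construction. At the lowest depth a library held 106 counts in all proteasome genes, so single genes rest on few or 0 counts there.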
